A study of Mus musculus with 4 samples.

Results

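The kinesin motor genes were described in a map of the RNA bound by IMP2, an IGF2BP protein that binds RNA and is encoded by Igf2bp2, in embryonic mouse brain. Members were the lines whose gene symbol is Kif followed by a digit, reduced to distinct clusters, which are stretches of overlapping tags. They comprised 25 clusters of 1828 in all, and lay in 2 genes of 761, namely Kif5c (13 clusters) and Kif1b (12 clusters). The map was made by HITS-CLIP, in which ultraviolet light joins a protein to the RNA it touches and an antibody pulls down both. The tissue was brain of Swiss Webster embryos at E14, and IMP2 antibodies from mouse and from rabbit are named in the protocol. The titles of the 4 libraries split them into 2 with R and 2 with M, letters that the labels do not explain. They name no other genotype or treatment, and no control immunoprecipitation or input was analysed here.

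A single deposited list stood for the 4 libraries, so each value below is the authors' value for a cluster and carries no replicate error. The height of a cluster is read here as its largest number of overlapping tags, and its fold is the height over a reference level that the file does not define. Over the whole list the median height was 30 (lowest 18, highest 107) and the median fold 5.40. Tag totals per library are not given with this list, so depth is unknown. Of the markers checked, 6 of 10 neuronal genes had a cluster, against 1 of 6 for progenitors, 1 of 4 for dividing cells, 2 of 3 for blood, 0 of 3 for endothelium and 0 of 3 for microglia. Of all protein-coding genes 3.47% had one, so 0 of 3 is no sign that a cell type was missing. A cluster needs both RNA and contact with IMP2, so fewer cells of a type, less RNA per cell and less binding cannot be told apart here.

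Kinesins are motor proteins that walk along microtubules and burn ATP to do so. In neurons most of them move toward the microtubule plus end, which carries cargo out along the axon. Kif5c encodes a heavy chain of kinesin-1, which hauls mitochondria, vesicles and RNA granules; its close relatives are the neuronal Kif5a and the widely expressed Kif5b. Kif1b encodes a kinesin-3 motor that carries mitochondria and precursors of synaptic vesicles. IGF2BP proteins bind messenger RNA, often in the 3' UTR, and are known for roles in the stability, translation and localization of their targets.

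Only Kif5c and Kif1b were listed among the kinesins, and both carried many clusters. Of the 38 protein-coding Kif genes of the RefSeq table, 2 had a cluster (5.26%, exact Clopper-Pearson 95% interval 0.644 to 17.7), and of all 21900 protein-coding genes 3.47% did. The interval holds the value for all genes, so the share of Kif genes listed is not set apart from that of other genes. Both listed kinesins had at least 12 clusters, a number reached by 2.10% of the 761 listed genes (16 genes). This cutoff equals the count of Kif1b, the lower of the 2, so both meet it by construction. Both kinesins also counted under stricter rules that fewer protein-coding genes met. These were at least 2 clusters (1.56% of all), a cluster above the median height (1.87%) and a cluster above the median fold (2.34%). With at least 12 clusters, both genes met the first rule by definition and had many chances at the others, so these rules add little. The list-wide median was 1 cluster a gene. Each of the 25 clusters was annotated to a single transcript, NM_008449 of Kif5c or NM_207682 of Kif1b.

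All 13 Kif5c clusters lay in its 3' UTR, a single interval of 3615 bases on the plus strand of chromosome 2 (49626684 to 49630298, mm9). In the whole list 1720 of 1828 clusters lay in a 3' UTR, so this place is not particular to Kif5c. The transcript starts at 49474834, and its coding part and 5' UTR had no listed cluster. The 13 clusters covered 1031 bases, or 28.5% of the 3' UTR, at 3.60 clusters per kilobase. Their heights were 23 at the lowest, 35 at the median and 55 at the highest, and their folds 2.97, 5.47 and 8.56. Width varied from 32 to 195 bases, with a median of 69 bases, against 54 bases over the whole list.

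Kif5c clusters fell into a run after the stop codon and a longer run further on, with a long empty stretch between them. The first run held 6 clusters within the first 676 bases, which is 18.7% of the 3' UTR, and they covered 63.9% of that stretch. No cluster was listed over the next 994 bases. The other 7 clusters lay between bases 1671 and 3565 and covered 31.6% of that span. Close spacing was not particular to the first run, whose gaps were 11 to 103 bases. The eighth to eleventh clusters, at bases 2047 to 2715, had gaps of 104, 22 and 89 bases. Longer gaps of 335, 431 and 315 bases set apart the other clusters of the second run. Heights of the runs overlapped: 27 to 45 (median 38.5) in the first, and 23 to 55 (median 31) in the second. The runs were told apart after the positions had been seen, and this split was not tested.

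The first run opened right after the stop codon. Its first cluster began on the first base of the 3' UTR (49626684 to 49626739), with a height of 45 and a fold of 5.98. Such a start is rare in the list: 4 of 1720 clusters in 3' UTRs began on the first base of their interval. The edge is that of the deposited annotation, and whether tags reach further upstream was not checked. The second cluster (49626751 to 49626848) followed after 11 bases, with a height of 35 and a fold of 4.67. The third (49626883 to 49626951) had a height of 27, and the fourth (49627015 to 49627066) a height of 29. These were the low middle of the run, which ended on a higher pair. The fifth cluster (49627170 to 49627227) had a height of 42 and a fold of 6.03, and the sixth (49627261 to 49627359) a height of 45 and a fold of 5.77.

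The second run held the tallest and also the lowest Kif5c clusters. It began with a cluster of height 25 (49628354 to 49628394), alone by 335 bases from the next. The eighth cluster (49628730 to 49628797) had a height of 48 and a fold of 6.68. The ninth (49628902 to 49629021) was the highest of the gene, with a height of 55 and a fold of 8.56, at bases 2219 to 2338 of the 3' UTR. Of all clusters in the list, 92.8% were no taller than this one, and 88.0% had no higher fold. Right behind it, after 22 bases, came the widest cluster (49629044 to 49629238, 195 bases), yet its height was only 31. Width and height therefore did not peak in the same cluster. The last 3 clusters had heights of 29 (49629328 to 49629398), 23 (49629830 to 49629861) and 44 (49630177 to 49630248), and the final one ended 50 bases before the end of the 3' UTR.

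**Figure D1:**
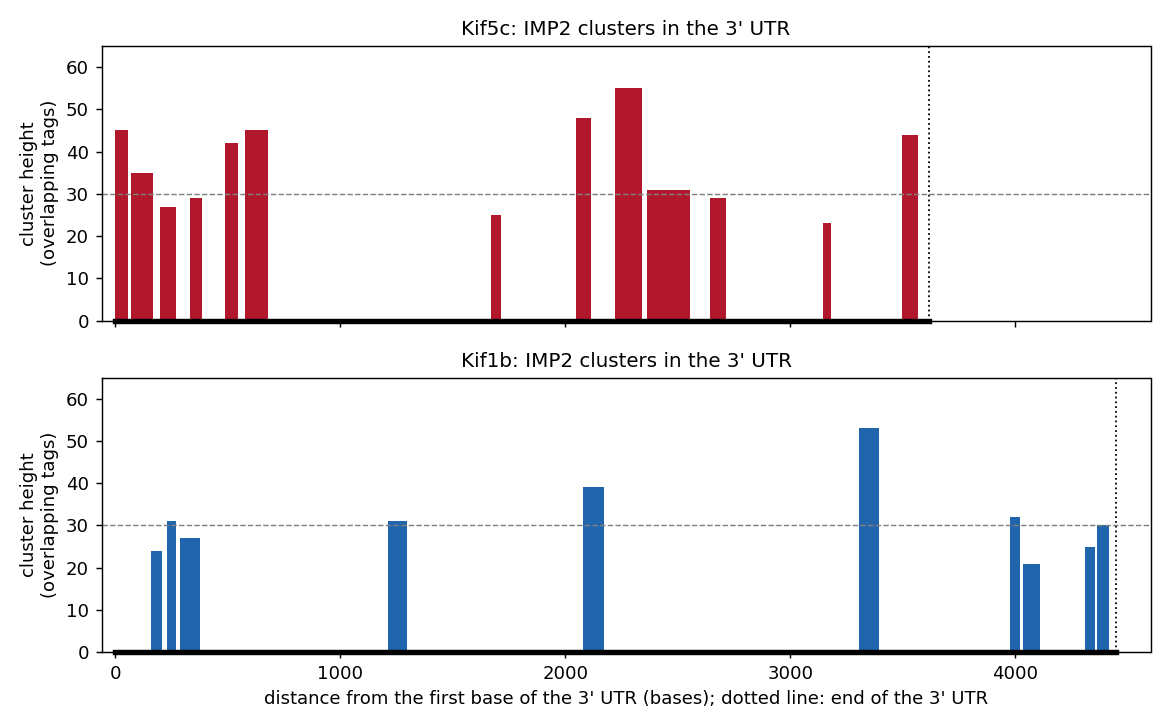
Clusters of IMP2 along the 3' UTRs of Kif5c (top) and Kif1b (bottom). The x axis is the distance from the first base of the 3' UTR in bases and the y axis is the height (overlapping tags); each bar is a cluster with its true width, the dashed line is the list-wide median height of 30, and the dotted line marks the end of the 3' UTR. Kif5c has 6 clusters in its first 676 bases followed by an empty stretch of 994 bases, while Kif1b has its clusters gathered near both ends.

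Kif1b had fewer clusters in a longer 3' UTR, and in addition a pair in the coding sequence. Its 3' UTR interval spans 4447 bases on the minus strand of chromosome 4 (148550430 to 148554876, mm9) and held 10 of its 12 clusters. These were 41 to 94 bases wide and covered 667 bases, or 15.0%, at 2.25 clusters per kilobase. Over all 12 clusters, heights were 21 at the lowest, 30.5 at the median and 53 at the highest, and folds 2.65, 4.29 and 6.41. The ranges of Kif5c and Kif1b overlap for both measures. Clusters of 1 transcript are not replicates, so the genes were compared by these values alone, with no test.

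The 3' UTR clusters of Kif1b gathered near the stop codon and near the 3' end. Within the first 377 bases lay 3 clusters, of heights 24 (148554669 to 148554716), 31 (148554609 to 148554649) and 27 (148554500 to 148554589), each 19 bases from the next. The last 500 bases held 4 more, with heights of 32 (148550856 to 148550903), 21 (148550771 to 148550845), 25 (148550524 to 148550567) and 30 (148550463 to 148550516). Between these ends stood 3 lone clusters, and they included the tallest of the gene. Their heights were 31 (148553580 to 148553663), 39 (148552706 to 148552799) and 53 (148551484 to 148551572), and the gaps on either side of them were 580 to 1133 bases long. The longest gap took up 25.5% of the 3' UTR in Kif1b and 27.5% in Kif5c. In the 34 genes with at least 8 clusters in a 3' UTR, this share had a median of 16.6% (lowest 5.46%, highest 42.8%), and Kif5c ranked 7 and Kif1b 9 from the top.

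The pair of coding clusters of Kif1b lay on facing edges of the coding intervals that hold them. The 3' one (148554895 to 148554919) had a height of 32 and a fold of 5.39, and ended exactly at the upstream edge of the last coding interval, 18 bases before the 3' UTR. The other (148555593 to 148555603) had a height of 25 and a fold of 3.75, and began exactly at the near edge of another coding interval. With 11 bases it was the narrowest cluster of the whole list. The intervals lie 673 bases apart in the genome, and 0 bases of either interval separate the clusters. Their widths add up to 36 bases. The file gives an interval only where a cluster falls, so another exon may lie between them, and whether they adjoin in the transcript was not checked. Kif5c had no coding cluster.

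Clusters of both kinesins lay on both sides of the list medians of height and fold. Among the 25 clusters, 14 (56.0%) were taller than 30, against 46.9% of all clusters. A fold above 5.40 was held by 9 (36.0%), against 49.9% of all clusters. By gene, 8 of 13 Kif5c clusters and 6 of 12 Kif1b clusters were above the median height, and 7 of 13 and 2 of 12 were above the median fold. Height divided by fold gives the reference level that the authors' fold implies. Its median was 7.19 in Kif5c (5.30 to 7.80) and 6.99 in Kif1b (4.91 to 8.27), against 5.96 over the whole list. These shares are descriptions, since clusters of 1 transcript share their source.

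**Figure D2:**
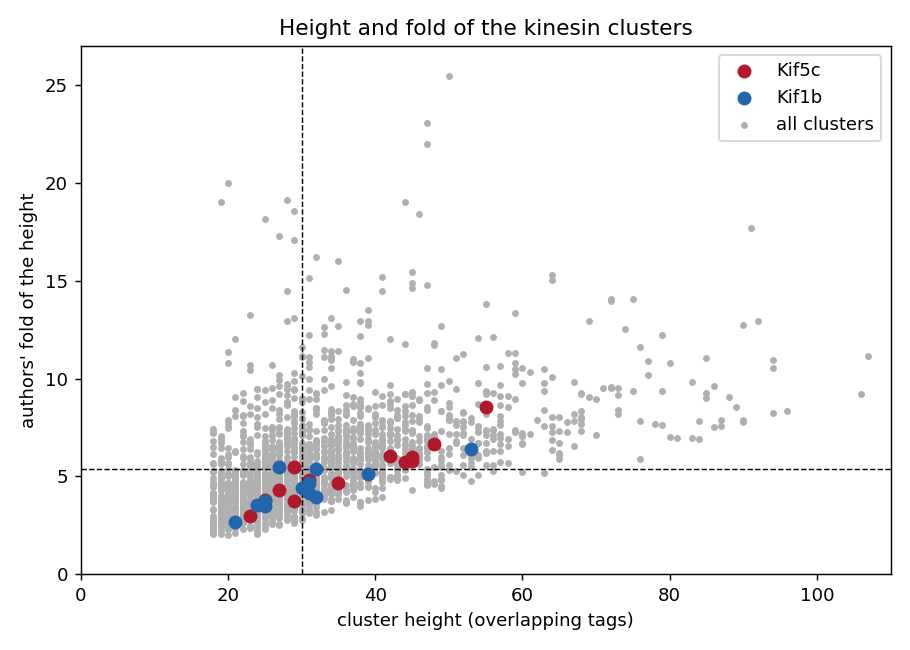
Height (x axis, overlapping tags) and the authors' fold of the height (y axis, ratio) of each cluster of Kif5c, of Kif1b and of the whole list; dashed lines mark the list-wide medians of 30 and 5.40. Kif5c reaches a height of 55 at a fold of 8.56 and Kif1b a height of 53 at a fold of 6.41, and no kinesin cluster lies among the highest folds of the list, which reach 25.5.

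Kif5c stood among the genes with the most clusters, but not among those with the tallest. By number of clusters it ranked 6 of 761 genes, level with 2 others, and Kif1b ranked 9, level with 7 others. By its highest cluster Kif5c ranked 67 and Kif1b 82. Within the 16 genes with at least 12 clusters the highest cluster had a median height of 61.5 (41 to 90), and 4 of these genes stayed below Kif5c and 2 below Kif1b. A long 3' UTR leaves more room for clusters, and that of Kif5c ranked 152 by length among 729 listed genes with such an interval. A further 145 listed genes had a 3' UTR of 0.8 to 1.25 times its length, and they had a median of 2 clusters (1 to 25) and a median highest cluster of 31 (18 to 90). Only 1 of them, the microtubule protein gene Map1b, had at least 13 clusters, and 5 had at least 12. These 5 were Map1b, the adhesion molecule gene Ncam1, the dendritic microtubule protein gene Map2, Kif1b and the adhesion receptor gene Cxadr.

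The rank of Kif5c depended on how clusters were counted. When clusters at most 50 bases apart were joined in every gene, Kif5c had 9 and Kif1b 8. Their ranks were then 13 and 16 among 761 genes. Per kilobase of 3' UTR, Kif5c ranked 53 and Kif1b 126 among the 729 genes with such an interval. By the share of the 3' UTR covered they ranked 51 and 123, also among genes with a 3' UTR interval only. These ranks are therefore not over the same genes as those by cluster count.

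**Figure D3:**
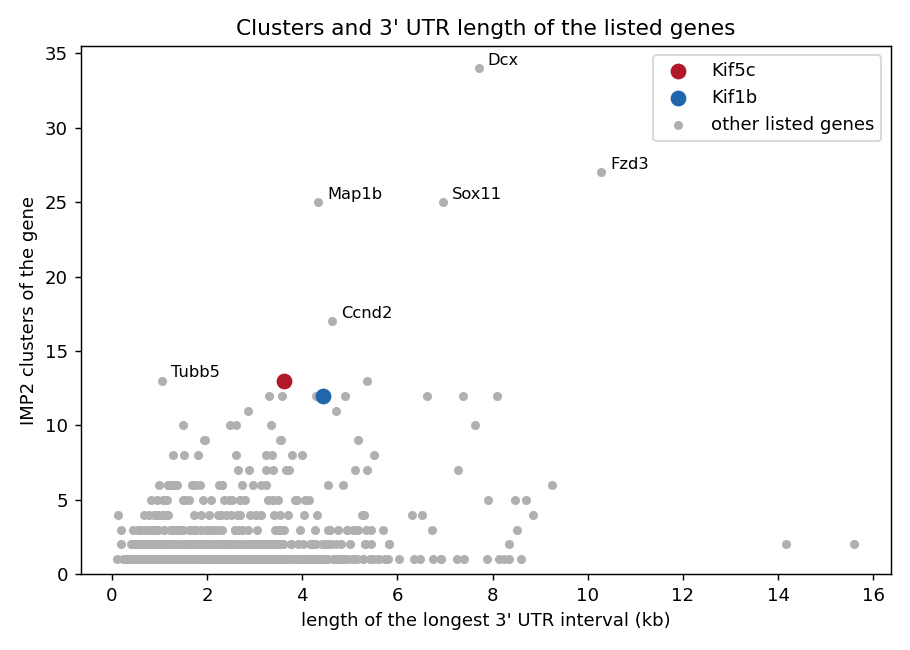
Number of IMP2 clusters of a gene (y axis) against the length of its longest 3' UTR interval in kilobases (x axis), 1 point a gene, for 729 listed genes with such an interval. Kif5c (13 clusters) and Kif1b (12 clusters) lie above nearly all genes of like length, and below Map1b with 25.

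The gene most like Kif5c in its cluster pattern was Map2. Likeness was the smallest distance over percentile ranks of 4 measures (number of clusters, highest height, median height and 3' UTR length) among 729 genes, so a small value is a close match. Map2 (distance 6.42) had 12 clusters, a highest height of 64 and a 3' UTR of 3576 bases. Its clusters also lay from near the stop codon to near the end, at bases 159 to 3521, but its longest gap was 502 bases. Next came Pafah1b2 (7.74), a subunit gene of the platelet-activating factor acetylhydrolase that LIS1 also belongs to, with 8 clusters and a highest height of 48. The proteoglycan gene Ncan (10.7), Prrc2b (10.8) and the cyclin gene Ccnd2 (11.6) completed the first 5, with 6, 5 and 17 clusters. Kif1b came 19th, at a distance of 17.9.

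The other 36 Kif genes had no listed cluster. Among the kinesin-1 heavy chains, Kif5a and Kif5b were not listed. None of the kinesin-2 genes was listed (0 of 5, exact upper 95% limit 52.2%); these motors serve axons and cilia, and the count includes the gene of their adaptor, Kifap3, which had no cluster. Of the kinesin-3 genes only Kif1b was listed (1 of 8), and Kif1a, the other main carrier of synaptic vesicle precursors, was not. The mitotic kinesins of families 5, 6, 7 and 12 were at 0 of 7 and the depolymerising families 8 and 13 at 0 of 7 (exact upper 95% limit 41.0% for each). With 3.47% of all protein-coding genes listed, a count of 0 or 1 in lists of this size does not set them apart. The lowest height in the list was 18, so a transcript with less RNA or weaker contact may not appear. The levels of these transcripts were not measured here, and their part in the absence was not tested.

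Among kinesin light chains, kinesin-14 genes, dynein, dynactin and dynein regulators, and cargo myosins, 3 genes had a cluster. All 4 kinesin light chain genes, whose proteins tie kinesin-1 to its cargo, and all 4 kinesin-14 genes, which move toward the minus end, were without a cluster (exact upper 95% limit 60.2% for each). Dynein, the motor for the return path to the cell body, had 1 of 16 genes listed, and dynactin and the dynein regulators 1 of 24. Cargo myosins, which move on actin, had 1 of 5. Together, these motors, motor subunits, dynactin and dynein regulators had 3 of 53 genes listed (5.66%, exact 95% interval 1.18 to 15.7). All protein-coding genes had 3.47%. That interval also holds the value for all genes.

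The few listed genes of these groups had clusters in their 3' UTRs only, where 1720 of the 1828 clusters of the list lay. Dynll2, a dynein light chain gene, had 5 clusters with heights of 22 to 33, the highest on chromosome 11 at 87793407 to 87793459. Pafah1b1, which encodes the dynein regulator LIS1 of migrating neurons, had 7 clusters with heights of 25 to 44, the highest on chromosome 11 at 74489498 to 74489545. Myo5a, a myosin that carries vesicles and RNA particles, had 3, and the highest (47) lay on chromosome 9 at 75066151 to 75066224. All 3 genes stayed below the highest cluster of either kinesin. They also had fewer clusters.

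Adaptors and cargo of kinesin-1 were listed in part. Of 23 KIF5 adaptors and partners, 3 had a cluster (exact 95% interval 2.78% to 33.6%, where all protein-coding genes had 3.47%). Dpysl2, which encodes CRMP2, a protein that links kinesin-1 to tubulin cargo in axons, had 10 clusters, the highest of height 96. Arl8b, a GTPase gene for lysosome transport by kinesin-1, had 2, with heights of 47 and 31 on chromosome 6 (108771926 to 108771970, and 108772039 to 108772106). Spag9, a JNK scaffold gene that binds motors, had 1 of height 22. The mitochondrial adaptors Trak1 and Trak2 were not listed.

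Among 15 genes for proteins of the RNA granules that KIF5 carries, 5 were listed (33.3%, exact 95% interval 11.8 to 61.6, where all protein-coding genes had 3.47%). They were Nono (height 52), Sfpq (35), Hnrnpu (28), the helicase gene Ddx3x (28) and Cyfip2 (27), all for RNA-binding proteins or their partners. Each had 1 or 2 clusters, far fewer than Kif5c. With a cluster above the median height required, or at least 2 clusters, 2 of the 15 counted. Of all protein-coding genes, 1.87% and 1.56% met these rules. With a fold above the median 1 of the 15 counted, where 2.34% of all protein-coding genes did. These lists were compiled with earlier results of these data known, so the counts are given without a test.

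**Figure D4:**
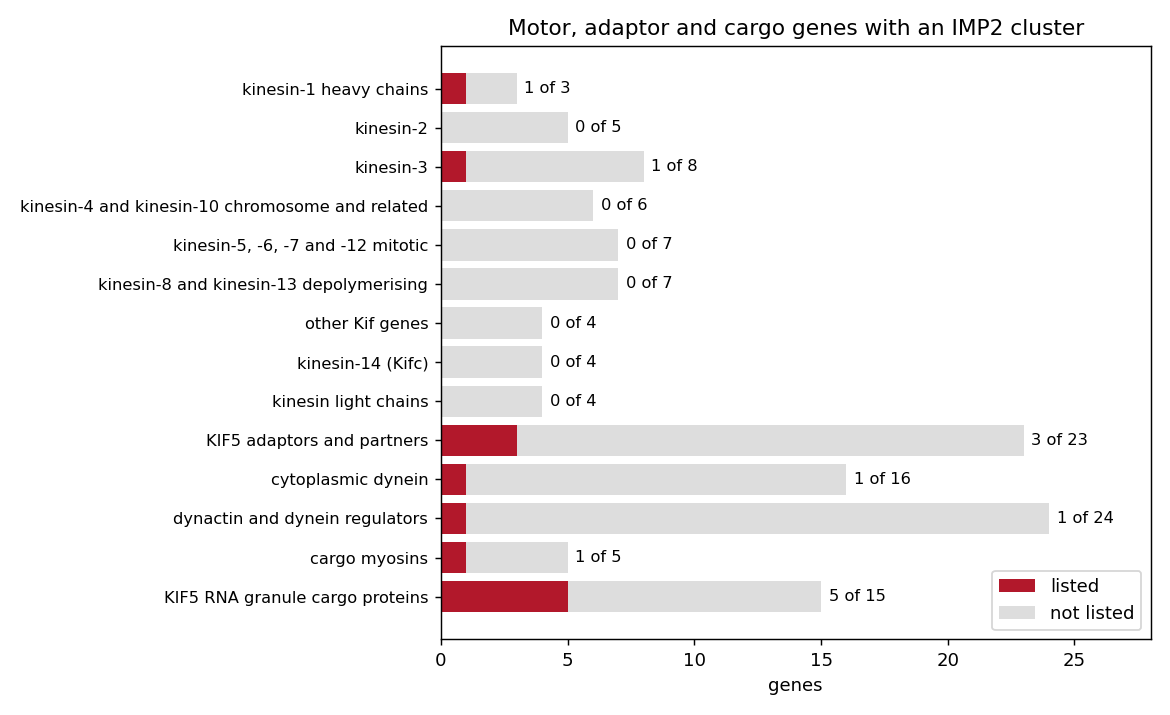
Number of genes (x axis) with and without an IMP2 cluster in each list of motor, adaptor and cargo genes (y axis). Kinesin-1 and kinesin-3 have 1 listed gene each, the other kinesin lists have 0, and the list with the most is that of RNA granule proteins with 5 of 15.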

How the data were processed

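The authors deposited 1 list of clusters for the 4 libraries. FastQC, Bowtie and build mm9 appear, with no versions or roles, in the submitters' processing notes. How clusters were called, with which thresholds, and whether libraries were pooled was not given in the sources used here. Per the file headers, the height is a deposited pileup signal and the deposited fold is a ratio of it; a further deposited column, the bases shared with the region, was not needed for any value. The 2865 lines were reduced to 1828 clusters. Of 1099 transcripts, 1088 were matched by accession and 11 by name to RefSeq (GRCm38.p6), used for names only.

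Region starts are 0-based. Cluster starts were read as 1-based, because 11 clusters start exactly 1 above a region start and 0 at it, while 8 end at a region end. The deposited count of bases shared with the region treats them as 0-based, so the file is not uniform. Statements on starts at an interval edge rest on the 1-based reading. The lowest deposited fold was 2.00. Regions were assigned by cluster midpoint. Members, lists and settings were chosen with earlier results of these data known. Named genes were the listed Kif genes, Kif5a and Kif5b, listed members of the motor lists and the 5 genes most like Kif5c; other genes were chosen after their values were seen. Intervals cover counting error only. No test was made. Joining and position steps were tested on simulated data (Python 3.11.15, pandas 2.3.3, scipy 1.17.1).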

Additional observations from a re-analysis of the deposited data

How the results depend on the processing

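The number of Kif genes listed stayed at 2 with taller clusters only, with higher folds only and with genes of at least 2 clusters. Of all protein-coding genes, 1.87%, 2.34% and 1.56% met these rules. Both Kif genes had at least 12 clusters, so the last rule could not change the number and the others were unlikely to. Kinesin clusters numbered 14 when only those taller than the median height counted and 9 with a fold above the median, in place of 25; Kif5c clusters numbered 8 and 7, in place of 13. All 13 stayed in the 3' UTR by either other region rule. By midpoint, 1720 of the 1828 clusters of the list lay in a 3' UTR. The mean position of the 13 Kif5c clusters was 42.0% of the way along the 3' UTR. It was 40.9% by the 5' end of the cluster and 41.7% weighted by height. The rank of Kif5c by cluster count was 6 of 761 genes, and 13 with clusters at most 50 bases apart joined. It was 53 per kilobase of 3' UTR, among the 729 genes with such an interval. The level of Kif5c was 55 by the highest cluster and 35 by the median. Motor, adaptor and cargo genes listed numbered 13 of 131 (9.92%, exact 95% interval 5.39 to 16.4). Of all protein-coding genes 3.47% were listed, which lies below that interval. With taller clusters, or with at least 2 clusters, 9 of the 131 counted, where 1.87% and 1.56% of all protein-coding genes did. The lists were compiled with earlier results of these data known, so no conclusion is drawn from these shares. Reading cluster starts as 0-based, chosen after seeing the data, gave a covered share of 28.2%, against 28.5%. No paired analysis was possible because the list has no values for single libraries, and no library could be left out for the same reason. Depth per library is unknown, so an unlisted gene is not shown to be unbound.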

Other observations

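The coding clusters of Kif1b and the first cluster of Kif5c were among 18 clusters of the list that lay exactly on an edge of a deposited interval. Those on facing edges of 2 intervals of the same transcript made 4 pairs in 3 genes, chosen after the values were seen; whether other exons lie between the intervals was not checked. The widths of the Kif1b pair add up to 36 bases (heights 32 and 25). The pair in the ubiquitin ligase gene Huwe1 adds up to 35 bases (heights 36 and 34), with 860 bases between the intervals. The translation factor gene Eif4g2 had the other 2 pairs, of 70 and 134 bases, with 95 and 1582 bases between the intervals. All 4 pairs lay in coding sequence. The rule favours this, since a pair needs 2 intervals and a 3' UTR can be a single one, as in Kif5c and Kif1b.

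Pafah1b2, the second gene in likeness to Kif5c, and Pafah1b1, a listed dynein regulator, encode subunits of the same acetylhydrolase complex. Pafah1b2 had 8 clusters with heights of 18 to 48, and Pafah1b1 had 7 with heights of 25 to 44. Both had all of their clusters in the 3' UTR, where 1720 of the 1828 clusters of the list lay.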
